A study of Mus musculus with 2 samples.

Results

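The mitochondrial ribosomal protein genes of B16 cells were examined in a library from control-treated cells and a library from cells treated with LY500307. B16 is a mouse melanoma line, and LY500307 is a compound that activates estrogen receptor beta in preference to receptor alpha. The genes were chosen by symbol: protein-coding genes whose symbol starts with Mrpl or Mrps followed by a number, without pseudogenes. By that rule there were 77 genes among the 18220 in the table, 48 of the large subunit (Mrpl) and 29 of the small subunit (Mrps). Mrpl53, whose symbol also fits, is in the gene annotation used here but was not listed in the table. Each treatment was 1 library. No difference between the treatments could therefore be tested or checked against replicates, and the values describe these 2 libraries. Dose and duration are not stated in the sources used here. Both libraries were made from total RNA depleted of ribosomal RNA, with a kit that keeps the strand.

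The mitochondrial ribosome translates the few messages of mitochondrial DNA, which encode core proteins of the respiratory chain and of ATP synthase. Its RNAs come from mitochondrial DNA, whereas all of its proteins are encoded in the nucleus, made in the cytosol and imported. The small subunit reads the message, and the large subunit joins the amino acids and releases the growing chain at the inner membrane. Many of the proteins have counterparts in bacterial ribosomes, and the others were added in the mitochondrial lineage.

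The control library held 16704950 reads and the LY500307 library 14698853. The melanocyte genes Pmel, Tyr, Tyrp1, Dct, Mlana, Mitf and Sox10 were between 297.7 and 10405.6 CPM (deposited values scaled to counts per 1000000) in both libraries. Of 16 markers of leukocytes, fibroblasts, endothelium, keratinocytes and erythroid cells, only 5 were listed in the table. Among these, 4 reached a mean of 1 CPM, and their sum was 8.92 CPM for control and 8.24 CPM for LY500307. The highest of them was Col1a2, a collagen gene of fibroblasts, at 4.82 and 3.11 CPM.

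Many of these genes start close to another gene that is read in the opposite direction, so that a short stretch of DNA lies between the 2 starts. Of the 77 genes, 33 (42.9%) had a protein-coding neighbour on the other strand whose annotated start lay within 1000 bases. Among all measured protein-coding genes that share was 17.5% (1914 of 10923). In 18 of the pairs the annotated spans do not overlap, so that the bodies point away from each other. In the other pairs the spans overlap at the starts. The stretches between the starts are shown for pairs that had folds alike or opposite in the comparison described further on. They are written 5′ to 3′ on the strand of the mitochondrial ribosomal gene, from RefSeq's mouse sequence of build GRCm38.p6, between the gene starts of GENCODE M21 on the same assembly. Capitals mark a match to a motif named below.

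Mrpl50 and Zfp189, chr4:49521094-49521175, minus strand: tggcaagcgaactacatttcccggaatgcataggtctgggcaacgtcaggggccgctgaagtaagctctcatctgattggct

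Mrpl32 and Psma2, chr13:14613166-14613239, minus strand: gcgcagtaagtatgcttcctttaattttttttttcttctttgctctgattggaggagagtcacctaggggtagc

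Mrpl57 and Ska3, chr14:57826186-57826233, plus strand: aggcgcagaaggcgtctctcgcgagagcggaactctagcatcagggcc

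Mrps18c and Helq, chr5:100798599-100798626, plus strand: gtgaCTTCCGGcccgggaagcgcgggaa

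Mrps27 and Ptcd2, chr13:99344706-99344785, plus strand: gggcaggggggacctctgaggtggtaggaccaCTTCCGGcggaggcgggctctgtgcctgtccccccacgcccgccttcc

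The stretch between Mrps18c and Helq was 28 bases long with 71.4% G and C, and that between Mrpl57 and Ska3 48 bases with 64.6%. That between Mrpl50 and Zfp189 was 82 bases with 53.7%, and that between Mrpl32 and Psma2 was 74 bases with 41.9%, including a run of T.

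Promoter windows of 250 bases before to 50 after a start were searched on both strands for short cores of 3 factors known to bind promoters of nuclear genes for mitochondrial proteins. RefSeq windows were found for 68 of the 77 genes. The ETS core CCGGAAG, which the factor GABPA binds, was in windows of 25 of the 68 genes (36.8%), against 9.93% of all 27025 genes with a window and 21.8% of the 9017 measured ones. The YY1 core AAGATGGC was in 12 (17.6%), against 3.19% of all and 5.69% of measured genes. The NRF1 core GCGCATGCG was in 7 (10.3%), against 1.95% of all and 4.44% of measured genes. A gene with several of these 3 cores was counted once among the 37 genes (54.4%) with at least 1 of them, against 14.1% of all and 29.2% of measured genes. By subunit, 23 of 42 large subunit genes (54.8%) and 14 of 26 small subunit genes (53.8%) held at least 1. With 1 letter left free the NRF1 core GCGCANGC was in 22 of the 68 genes (32.4%), against 24.01% of measured genes, and a YY1 core written ANATGGCG in 11 (16.2%), against 8.72%. Each match to the longer NRF1 core is also a match to the looser one, and AAGATGGC followed by G also matches the looser YY1 core. Matches are described as letters only, and a window without one says nothing about the factor.

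The places of some of these letters are shown in 30 bases each, to let the NRF1 and YY1 cores be compared across genes. Positions count from the RefSeq start.

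NRF1 core, Mrpl10, chr11:97041437-97041466, plus strand: cccagctccaCGCATGCGCatagcggccct

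NRF1 core, Mrpl32, chr13:14613041-14613070, minus strand: gcggacttaaCGCATGCGCtcagcccgcgt

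NRF1 core, Mrps18b, chr17:35916645-35916674, minus strand: aacggcccgaCGCATGCGCactgggagcac

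YY1 core, Mrps18a, chr17:46111004-46111033, plus strand: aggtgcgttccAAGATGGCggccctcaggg

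YY1 core, Mrps11, chr7:78783013-78783042, plus strand: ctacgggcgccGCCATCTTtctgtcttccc

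The NRF1 matches shown were on the reverse strand, with their first base at position -135 in Mrpl10, -224 in Mrps18b and -23 in Mrpl32. Mrpl32 also had overlapping matches at -87 (forward) and -86 (reverse). The YY1 core was at position 12 in Mrps18a and, on the reverse strand, at -107 in Mrps11. The median log2 fold between the libraries was 0.03 for the genes with a core and 0.04 for those without.

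All 77 genes were measured, with 162 reads or more in each library and mean levels of 10.997 to 176.3 CPM. The group was close to equal in both libraries and slightly higher in LY500307. Folds are log2((LY500307 + 1)/(control + 1)) of CPM values, which understates the differences of low genes a little. The median log2 fold of the 77 genes was 0.04, beside -0.01 over all 12243 measured genes (mean of 1 CPM or more) and -0.01 over the 7778 genes in the same range of mean levels. Of the 77 genes 48 were higher (62.3%) and 29 lower in the LY500307 library, where 48.3% of all measured genes and 47.4% of those in the range were higher. In RNA from whole cultures, fewer cells of a kind and less RNA per cell cannot be told apart. Together they took 0.420% of the control reads (exact 95% Clopper-Pearson interval 0.417% to 0.423%) and 0.438% of the LY500307 reads (0.434% to 0.441%). All intervals cover counting error only, and PCR reads counted without molecular identifiers do not stand for independent molecules.

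None of the 77 genes was 2-fold higher or lower, where 0.253% of all measured genes were higher and 0.123% lower by that much (0.0514% and 0.0386% of those in the same range of levels). Nor was any past 1.5-fold, where 2.25% of measured genes were higher and 1.39% lower by that much. Of the 7778 genes in the same range, only 55 were higher and 30 lower by 1.5-fold. At 1.2-fold, 4 genes were higher (11.5% of all measured genes, 7.42% of those in the same range) and 1 was lower (9.91% and 7.03%). At 1.1-fold, 20 were higher and 6 lower, where 23.3% and 23.9% of measured genes were (1554 and 1656 of the 7778 in the range). The counting interval of the ratio of reads lay above 0 on the log2 scale for 15 genes (17.2% of measured genes, 17.6% of those in the range). It lay below 0 for 4 genes (19.2% and 20.3%).

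**Figure D1:**
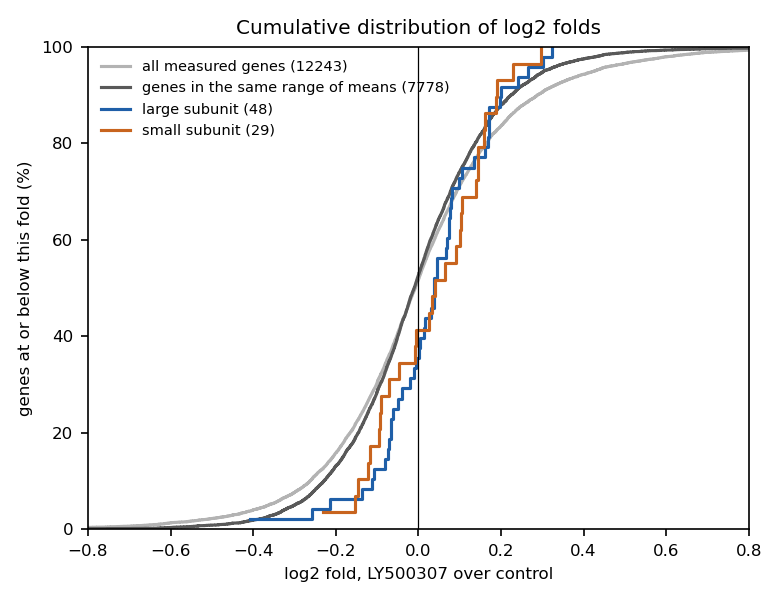
Cumulative share of genes in percent against the log2 fold of LY500307 over control, for 48 large subunit genes, 29 small subunit genes, all 12243 measured genes and the 7778 measured genes in the same range of mean levels. Both subunit curves pass their midpoint at a log2 fold of about 0.04.

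The folds lay close together. Their standard deviation over the 77 genes was 0.137 on the log2 scale, beside 0.194 for the 7778 genes in the same range. Counting error by itself gives 0.080 for the 77 genes and 0.088 for the 7778. The middle of the distribution, from the 25th to the 75th percentile, ran from -0.07 to 0.14 for the 77 genes and from -0.12 to 0.11 for genes in the range. Across the 77 genes, which share libraries and annotation and are not replicates, Pearson's r between the log2 levels of the libraries was 0.985. The fold had almost no relation to the mean level (r = 0.01) or to transcript length (r = -0.07) across these genes.

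**Figure D2:**
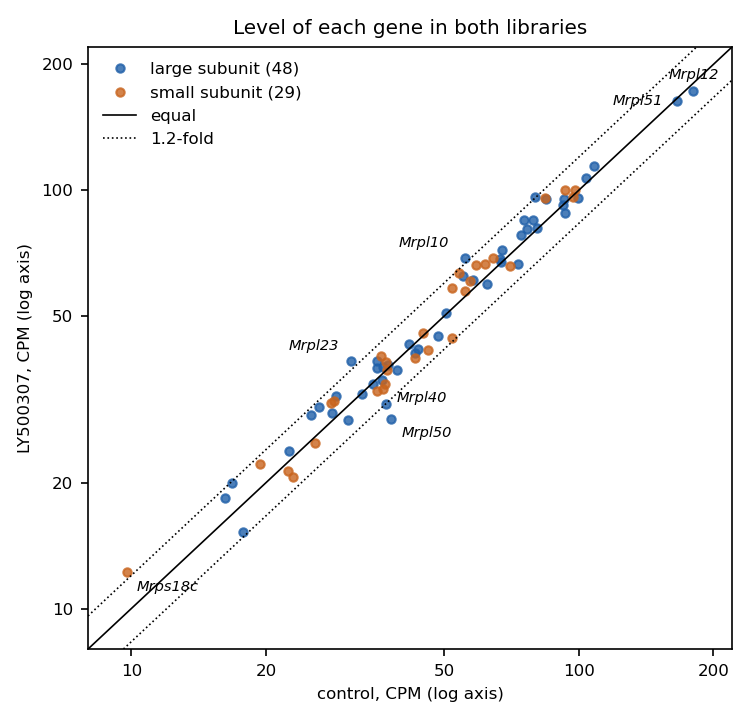
Level of each of the 77 genes in CPM in the control library (horizontal, log axis) and the LY500307 library (vertical, log axis), with lines of equal level and of 1.2-fold. Points follow the line of equal levels from Mrps18c at a mean of 10.997 CPM to Mrpl12 at 176.3, and Mrpl50 lies furthest below it.

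Large and small subunit genes had nearly the same medians. The 48 large subunit genes had a median log2 fold of 0.04 (25th to 75th percentile -0.05 to 0.11), with 31 higher (64.6%) and 17 lower. The 29 small subunit genes had a median of 0.04 (-0.09 to 0.14), with 17 higher (58.6%) and 12 lower, beside the same 48.3% of all measured genes. Summed over genes, the large subunit was at 2824 CPM in control and 2895 in LY500307, a log2 ratio of 0.036 (0.017 to 0.055). The small subunit was at 1408 and 1452 CPM, a log2 ratio of 0.044 (0.017 to 0.071), and these intervals overlap. Small subunit genes held 33.3% of the mitochondrial ribosomal reads in the control (32.9% to 33.6%) and 33.4% in the LY500307 library (33.03% to 33.8%). Leaving out the genes whose annotated span overlaps another gene turned the small subunit median to -0.04, while the median of the 36 genes left was 0.04. Summed, those 36 genes had a log2 ratio of 0.020 (-0.005 to 0.044), which includes 0, and 55.6% of them were higher. The 41 genes with an overlap had a summed log2 ratio of 0.052 (0.031 to 0.072), and 68.3% were higher. These intervals overlap. The mean log2 fold was 0.061 with an overlap and 0.007 without, but the median was 0.04 in both sets. The sets therefore differed in sum, mean and share, and not in median. Whether strand was used in counting is not stated in the sources used here, so reads of overlapping genes may be mixed, and the part of this in the folds was not tested.

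**Figure D3:**
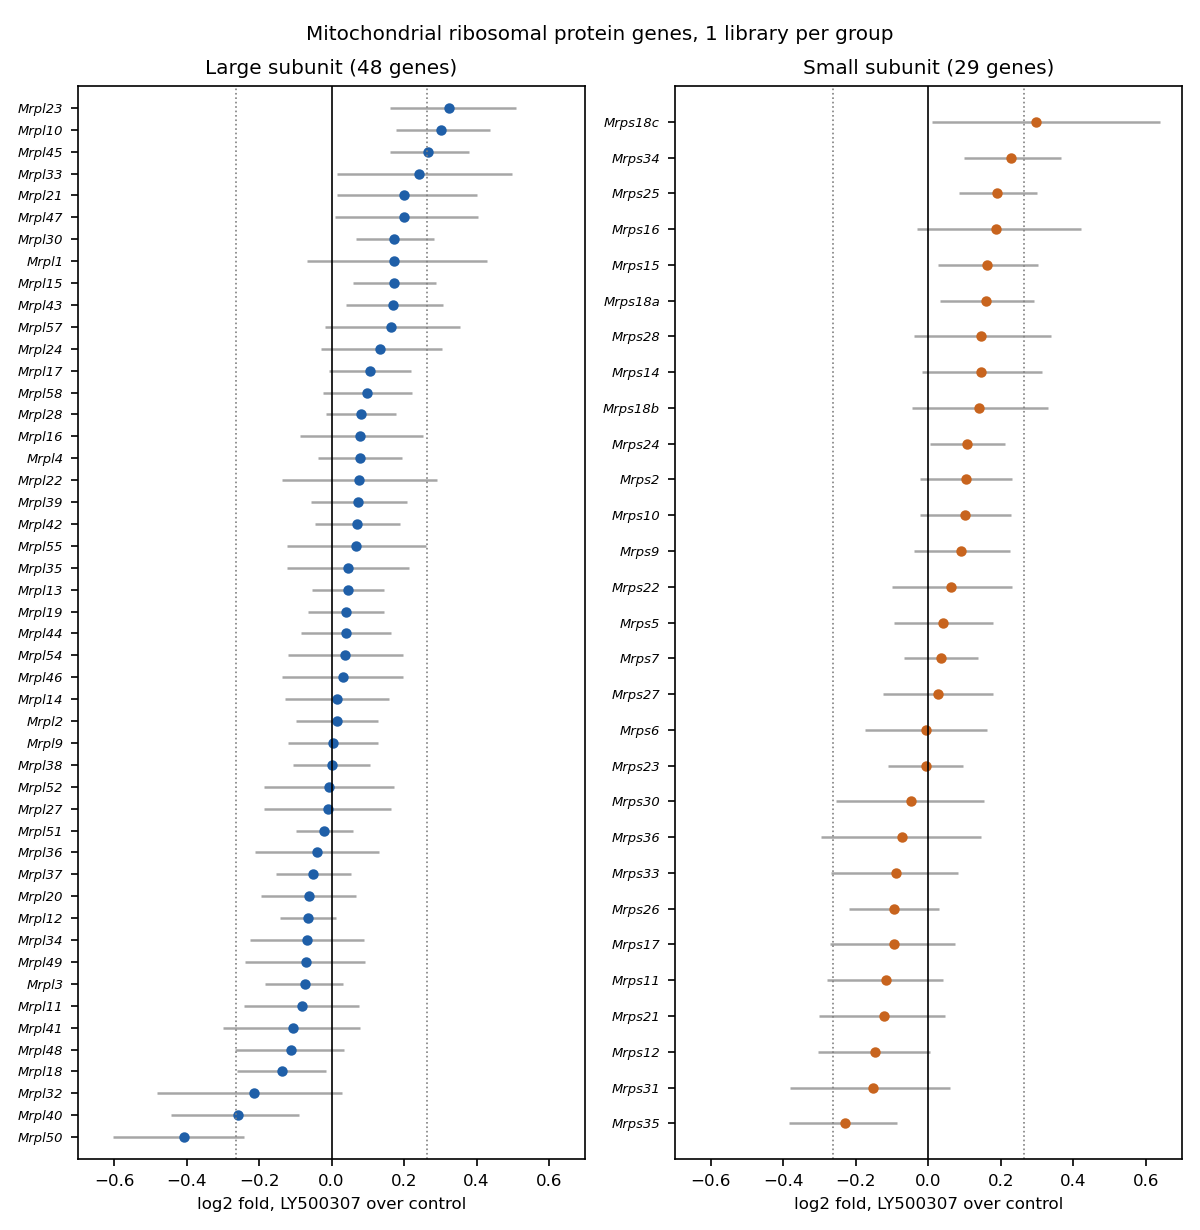
Log2 fold of LY500307 over control for each gene (points) with the exact 95% counting interval of the ratio of reads (grey lines), in panels for the 48 large and 29 small subunit genes; dotted lines mark 1.2-fold. Most intervals cross 0, the highest points are Mrpl23 at 0.32 and Mrps18c at 0.30, and the lowest is Mrpl50 at -0.41.

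The large subunit genes past 1.2-fold upward were Mrpl23, Mrpl10 and Mrpl45. Mrpl23, counterpart of a bacterial protein at the exit of the peptide tunnel, was at 31.04 CPM in control and 39.1 in LY500307, with a log2 fold of 0.32 (0.16 to 0.51). Mrpl10, which forms the base of the factor-binding stalk, was at 55.8 and 69.0 CPM, a log2 fold of 0.30 (0.18 to 0.44). Mrpl45, a mitochondrial protein beside the tunnel exit that holds the ribosome to the inner membrane, was at 79.8 and 96.2 CPM, a log2 fold of 0.27 (0.16 to 0.38). None of the 3 intervals reached 0. The annotated spans of Mrpl10 and Mrpl45 overlap the gene models Gm11574 and Gm11594. Mrpl33 followed with 278 and 296 reads (0.24, interval 0.01 to 0.50) and Mrpl21 at 26.2 and 30.3 CPM (0.20, 0.01 to 0.40). Mrpl12, which binds Mrpl10 in the stalk, was at 180.3 and 172.3 CPM (-0.07, -0.14 to 0.01). Mrpl23 has a processed pseudogene in the table, Mrpl23-ps1, with 56 and 80 reads beside the 515 and 579 of Mrpl23. Summed with it, the log2 fold of Mrpl23 was 0.36.

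Mrpl50 stood lowest of the 77 genes. This mitochondrial addition to the large subunit was at 38.1 CPM in control and 28.4 in LY500307, on 632 and 421 reads, with a log2 fold of -0.41 (-0.60 to -0.24). It was the gene past 1.2-fold downward. Mrpl40, also a mitochondrial addition and in humans one of the genes of the region deleted in DiGeorge syndrome, was at 37.1 and 30.9 CPM (-0.26, -0.44 to -0.09). Mrpl32, whose protein is matured by the m-AAA protease of the inner membrane, was at 17.8 and 15.2 CPM (-0.21, -0.48 to 0.03). Mrpl18 was at 73.2 and 66.5 CPM (-0.14, -0.26 to -0.02) and Mrpl48 at 48.5 and 44.8 (-0.11, -0.27 to 0.03). Mrpl48 has a listed pseudogene, and with its reads added the fold of Mrpl48 was -0.09.

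Log2 folds of the small subunit genes ran from -0.23 to 0.30. Mrps18c, the closest relative of the bacterial protein S18, was at 9.76 and 12.2 CPM, on 162 and 181 reads, a log2 fold of 0.30 with a wide interval of 0.01 to 0.64. It was the small subunit gene past 1.2-fold, and it overlaps the gene model Gm43511. Mrps34 was at 53.9 and 63.3 CPM (0.23, 0.10 to 0.37), Mrps25 at 83.9 and 95.8 (0.19, 0.08 to 0.30), Mrps16 at 19.3 and 22.2 (0.19, -0.03 to 0.42) and Mrps15 at 52.0 and 58.2 (0.16, 0.03 to 0.30). Mrps34 and Mrps25 overlap other protein-coding genes, Mapk8ip3 and Nme3 in the case of Mrps34 and Nr2c2 in the case of Mrps25. At the lower end Mrps35 was at 52.1 and 44.3 CPM, a log2 fold of -0.23 (-0.38 to -0.09), and it was the small subunit gene with an interval below 0. Mrps31 was at 23.02 and 20.6 CPM (-0.15), Mrps12, the counterpart of a bacterial protein of the decoding site, at 46.1 and 41.6 (-0.15), Mrps21 at 36.6 and 33.5 (-0.12) and Mrps11 at 43.1 and 39.7 (-0.12), each with an interval that includes 0.

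The 3 genes of the Mrps18 family descend from the same bacterial protein and take different places in the ribosome: the proteins of Mrps18b and Mrps18c lie in the small subunit, and that of Mrps18a in the large one. All 3 were higher in the LY500307 library. Mrps18a was at 59.1 and 66.1 CPM (0.16, 0.03 to 0.29), Mrps18b at 28.3 and 31.3 (0.14, -0.05 to 0.33), and Mrps18c as given above. Mrps18b has a listed copy, Gm13552, with 43 and 33 reads, and the sum had a log2 fold of 0.11. Another protein named for the small subunit but found in the large one is that of Mrps30, at 25.7 and 24.9 CPM (-0.05, -0.25 to 0.16). Mrps36, whose protein has since been assigned to the alpha-ketoglutarate dehydrogenase complex, was at 22.4 and 21.3 CPM (-0.07, -0.30 to 0.14). With Mrps18a and Mrps30 counted as large and Mrps36 left out, the medians were 0.04 for 50 large and 0.05 for 26 small subunit genes.

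Genes with a bacterial counterpart, among which Mrps18c stood for the Mrps18 family, had a slightly higher median than the other genes. These others were mitochondrial additions or divergent genes, and Mrps18a, Mrps18b, Mrps28 and Mrps36 were counted among them. The 45 with a counterpart had a median log2 fold of 0.07, with 31 higher (68.9%) and intervals above 0 for 10 and below 0 for 1. The 32 others had a median of 0.01, with 17 higher (53.1%) and intervals above 0 for 5 and below 0 for 3. Over all measured genes 48.3% were higher, and intervals lay above 0 for 17.2% and below 0 for 19.2%. The same order held within subunits, 0.06 (30 genes) against 0.02 (18 genes) in the large and 0.09 (15 genes) against 0.01 (14 genes) in the small one. Summed over genes, the log2 ratios were 0.048 (0.028 to 0.068) with a counterpart and 0.025 (0.001 to 0.049) without, and these intervals overlap.

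The levels of the genes differed far more among themselves than between the libraries. Given as CPM per kilobase of the principal transcript, they ran from 4.56 to 137.0 in the control and from 5.05 to 130.9 in the LY500307 library, a range of 30.1-fold and 25.9-fold. Mrpl12, the stalk protein that also binds the mitochondrial RNA polymerase, was highest, at 137.0 and 130.9 CPM per kilobase. Mrpl42 followed with 111.8 and 117.4, and Mrpl28 with 101.3 and 107.2. In the small subunit Mrps24, the S3 counterpart, was at 93.5 and 100.8, Mrps21 at 74.97 and 68.7, and Mrps23 at 72.8 and 72.4. At the low end per kilobase were Mrpl1, the protein of the L1 stalk, at 4.56 and 5.17, Mrpl32 at 5.90 and 5.05 and Mrpl47 at 7.49 and 8.64. Mrps17 was at 7.28 and 6.80 per kilobase, Mrps30 at 7.75 and 7.49 and Mrps16 at 7.52 and 8.62. The chosen length matters here. With the length of all annotated exons together in place of the principal transcript, Mrpl12 ranked 1st and Mrpl28 2nd of 77, but Mrpl42 ranked 39 in place of 2, and Spearman's rho between both orders was 0.741. The order of the genes per kilobase was nearly the same in both libraries (Pearson's r of log2 levels 0.992, n = 77 genes).

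**Figure D4:**
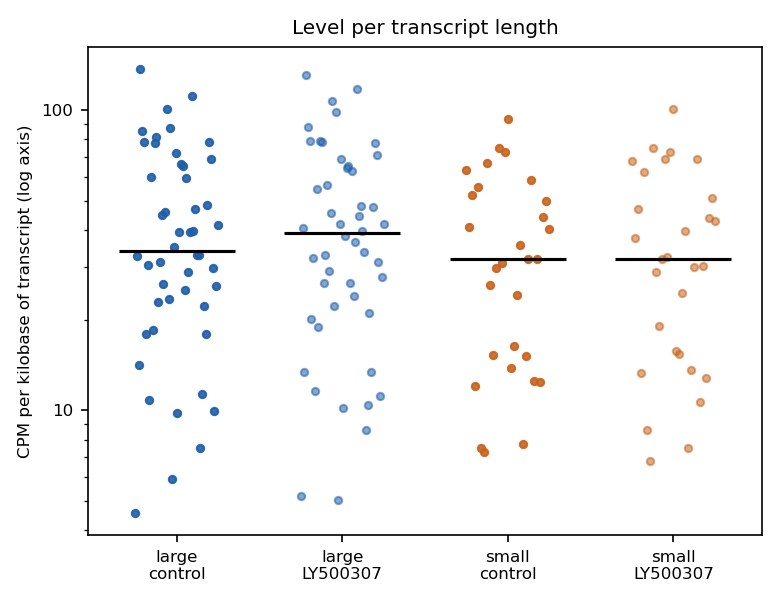
CPM per kilobase of principal transcript (log axis) for each gene by subunit and library, with the median as a bar. Medians are 34.03 and 38.9 for the large subunit in control and LY500307, and 31.96 and 31.97 for the small subunit, inside a spread of about 30.1-fold in the control. The median log2 fold of the genes was 0.04 in both subunits.

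The median level per kilobase was 34.03 in the control for large subunit genes (25th to 75th percentile 22.8 to 65.5) and 31.96 for small subunit genes (15.2 to 52.2). In the LY500307 library it was 38.9 (21.96 to 64.4) and 31.97 (15.4 to 51.1). For the large subunit the median was higher in that library, but the 25th and 75th percentiles were lower. The median log2 fold of the genes was 0.04 in both subunits. The summed level per kilobase of the large subunit was 2.02 times that of the small subunit in the control and 2.0 times in the LY500307 library. Most reads fell on Mrpl12 (2992 and 2550 reads), Mrpl51 (2750 and 2419, a log2 fold of -0.02) and Mrpl28 (1795 and 1694, 0.08).

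Over all measured pairs, neighbours that start beside these genes had folds of the same sign about as often as not. Of 30 measured pairs that hold one of the 77 genes, 15 had folds of the same sign. Of the other 808 measured pairs of protein-coding genes with such starts, 430 did (53.2%). Among the 18 pairs whose annotated spans do not overlap, 12 had the same sign (66.7%), and the 53.2% of other pairs was not split by overlap. Pearson's r of the folds was 0.20 across the 30 pairs and 0.27 across the 18, as a description over pairs from the same 2 libraries. Mrpl50 had a neighbour with a fold alike: Zfp189, a zinc finger gene whose start lies 83 bases from that of Mrpl50, was at 8.32 and 5.88 CPM, a log2 fold of -0.44 (-0.90 to -0.10). Other pairs had folds of opposite sign. Ska3, which ties kinetochores to spindle microtubules, starts 49 bases from Mrpl57 and was at 31.2 and 23.9 CPM (-0.37, -0.58 to -0.18), while Mrpl57 had a log2 fold of 0.16. Helq, a DNA helicase gene 29 bases from Mrps18c, was at 31.5 and 25.3 CPM (-0.30, -0.51 to -0.12), against 0.30 for Mrps18c, and these intervals do not overlap. Psma2, a proteasome subunit gene 75 bases from Mrpl32, was at 99.3 and 105.8 CPM (0.09, -0.01 to 0.19), against -0.21. In 2 further pairs both folds had the same sign. Ncapd2, a condensin subunit gene 100 bases from Mrpl51, was at 484.4 and 408.4 CPM (-0.25, -0.29 to -0.20), beside -0.02 for Mrpl51. Ptcd2, 81 bases from Mrps27, had a log2 fold of 0.03, as did Mrps27. Mrpl46 and Mrps11 are neighbours of each other, one in each subunit, with starts 412 bases apart and overlapping spans. Mrpl46 had a log2 fold of 0.03 and Mrps11 of -0.12.

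**Figure D5:**
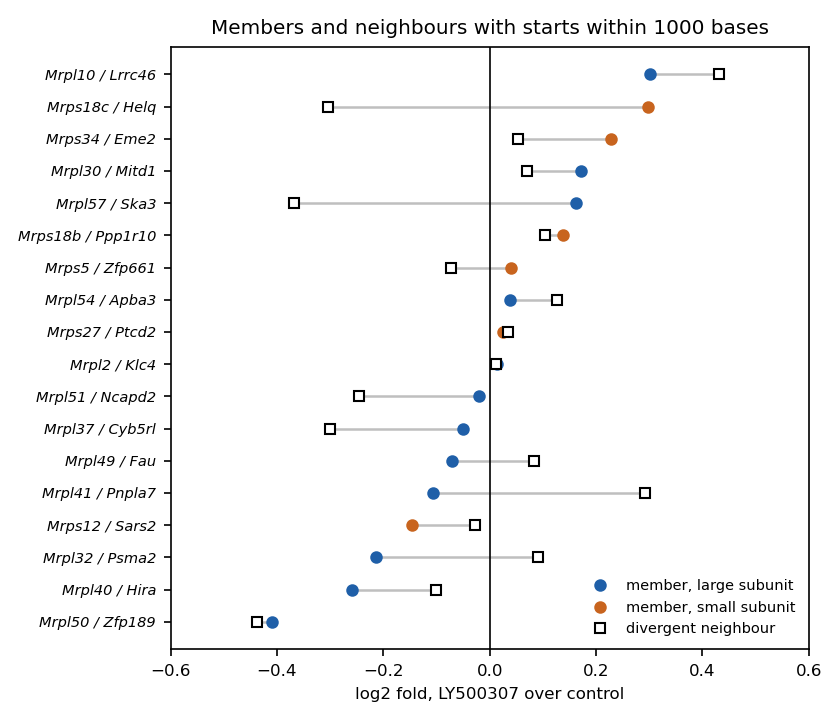
Log2 fold of LY500307 over control for 18 of the genes (filled circles) and the protein-coding gene that starts within 1000 bases on the other strand (open squares), for pairs whose annotated spans do not overlap, ordered by the fold of the mitochondrial ribosomal gene. Mrpl50 and Zfp189 lie together at the low end, and Mrpl57 with Ska3 and Mrps18c with Helq lie on opposite sides of 0.

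Proteins of the mitochondrial ribosome that carry other symbols fell in the same range. Of 5 such genes, Gadd45gip1 of the large subunit was at 38.8 and 47.3 CPM (0.28, 0.13 to 0.44), and Chchd1 of the small subunit at 33.03 and 39.9 (0.26, 0.10 to 0.44), both past 1.2-fold. Dap3, a GTP-binding protein of the small subunit, was at 96.7 and 102.1 CPM (0.08, -0.02 to 0.18), and Ptcd3, an RNA-binding protein of the small subunit, at 125.1 and 118.5 (-0.08, -0.17 to 0.01). Their median log2 fold was 0.08. Of all measured genes 11.5% were at least 1.2-fold higher.

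Factors of mitochondrial translation were also close to equal in both libraries. The 15 measured translation factors and accessory genes had a median log2 fold of 0.03, with none past 1.2-fold, intervals above 0 for 0 and below 0 for 3. Over all measured genes 11.5% were higher and 9.91% lower by 1.2-fold. Intervals lay above 0 for 17.2% of them and below 0 for 19.2%. Gfm1, the elongation factor that moves the ribosome along the message, was at 151.7 and 134.0 CPM (-0.18, -0.26 to -0.09). Guf1, a relative of the bacterial factor LepA, was at 56.1 and 48.8 (-0.20, -0.34 to -0.06). The initiator tRNA formyltransferase gene Mtfmt was at 0.15 and the release factor gene Mtrf1l at 0.18, both with intervals that include 0. Summed, these 15 had a log2 ratio of -0.071 (-0.107 to -0.036), opposite in sign to their median and to the sum of the ribosomal protein genes.

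The 24 genes of ribosome assembly and rRNA modification had a median log2 fold of -0.02, with 1 at least 1.2-fold higher and 2 lower. For this list and the next, the shares over all measured genes were 11.5% higher and 9.91% lower by 1.2-fold. Fastkd2, which binds the RNA of the large subunit, was at 41.2 and 33.1 CPM (-0.31, -0.48 to -0.14), and Mrm1, which methylates that RNA, at 18.98 and 15.4 (-0.28, -0.55 to -0.05). Ngrn, needed for the same RNA, was at 15.7 and 19.3 CPM (0.28, 0.04 to 0.54), and Eral1, a chaperone of the small subunit RNA, at 29.3 and 32.6 (0.15, -0.03 to 0.34). The 14 genes of mitochondrial transcription and of factors for nuclear mitochondrial genes had a median of 0.01, with 0 higher and 2 lower by 1.2-fold. These were Pprc1, a coactivator related to PGC-1alpha, at 123.9 and 103.0 CPM (-0.26, -0.36 to -0.17), and Mterf1a on 33 and 20 reads (-0.35, -1.44 to 0.29). Summed, the 14 genes had a log2 ratio of -0.052 (-0.088 to -0.016), opposite in sign to their median. Intervals lay below 0 for 3 of them (19.2% of measured genes) and above 0 for 0 (17.2%). Of the factors whose cores were searched above, Nrf1 was at 76.0 and 64.4 CPM (-0.24, -0.36 to -0.12), Gabpa at 62.3 and 61.9 (-0.01) and Yy1 at 151.7 and 155.3 (0.03). Tefm and Tfb2m, which serve the mitochondrial RNA polymerase, had log2 folds of 0.17 and 0.10 with intervals that include 0.

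The ribosomal RNAs that these proteins bind differed in opposite directions. The small subunit RNA mt-Rnr1 was at 142.4 and 276.9 CPM, a log2 fold of 0.95 (0.89 to 1.03), and the large subunit RNA mt-Rnr2 at 446.2 and 390.5 (-0.19, -0.24 to -0.14). Ribosomal RNA had been depleted from both libraries, and the part of the depletion in this difference was not tested. The cytosolic ribosomal protein genes, 79 measured, had a median log2 fold of 0.06 and a summed log2 ratio of 0.041 (0.036 to 0.046), beside 0.039 (0.023 to 0.054) for the 77 mitochondrial ones, and these intervals overlap.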

How the data were processed

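RNA of 1 control-treated and 1 LY500307-treated B16 library was measured. The submitters' processing notes name CASAVA 1.8, Bowtie2 and build mm9. How reads were counted, by which annotation, strand setting and scaling, is not stated in the sources used here. Each deposited value is a gene's signal: reads times 1 factor per library, 0.944 in the control and 1.06 in LY500307, not divided by length. Whole reads were recovered for 100% of values within 1% of a read (worst distance 0.059%). Dividing by the average of the 2 deposited totals gave CPM, and 1 read was worth 0.0603 and 0.0676 CPM. Symbols were found for 18177 of 18224 identifiers, and entries sharing a symbol were summed. A gene was measured at a mean of at least 1 CPM, and called past a fold of 1.2 or 2 with a pseudocount of 1.

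Intervals are exact 95% Clopper-Pearson intervals of the ratio of reads. Lengths, neighbours and overlaps came from GENCODE M21, and promoter windows from RefSeq on GRCm38.p6, so no position on mm9 is given. Near-identical copies were transcripts with 95% identity along 100 bases or more and 50% of the shorter one (blastn 2.17.0), and 24 of the 77 genes had one. A match to part of a gene's transcript could meet this rule. Gm25197 counted for Mrpl19, Mrpl20 and Mrpl35 alike, so not all of these need be copies of the whole gene. Named genes are the 5 highest and 5 lowest folds and the 3 highest and 3 lowest levels per kilobase of each subunit, the 3 with most reads, the Mrps18 family, Mrpl12, Mrps30 and Mrps36, and the 2 highest and 2 lowest folds of each other list. Further genes (neighbours, Nrf1, Gabpa, Yy1, Mrps27, Mrpl57 and Mrpl46) were chosen after their values were seen. Genes and lists were chosen with earlier results of these data known. No protein sequences were used. The calculations were tested on simulated data. Software was matplotlib 3.10.9, pandas 2.3.3, scipy 1.17.1, numpy 2.4.6 and Python 3.11.15.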

Additional observations from a re-analysis of the deposited data

How the results depend on the processing

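With 1 library per group there is no replicate to leave out. No paired analysis was possible because each group has 1 library and the labels give no replicate numbers. Under each alternative pseudocount, expression minimum, scaling, treatment of copies or overlaps and choice of subunit that was run, 0 of the 77 genes passed 2-fold, and with the threshold at 1.5-fold in its place 0 passed. None of the 173 recomputed folds of the 33 named genes moved by more than the width of its counting interval. These folds were recomputed only under other pseudocounts, scalings and sums with copies. Such settings shift a fold little, the scalings by at most 0.020, so this result could hardly have differed. The part of overlapping genes was not recomputed gene by gene. Scaling each library to its own total put the median log2 fold at 0.058 for the 77 genes and 0.058 for the large subunit, and this scaling moved all genes by 0.020. The median of the small subunit turned to -0.0394 without genes that overlap another gene, an alternative chosen after seeing the data, which also left 1 gene of the 77, 1 of the large and 0 of the small subunit at least 1.2-fold higher. Fewer genes entered, and the cause was otherwise not tested. With a pseudocount of 0.1, 2 genes of the 77, both of the large subunit, were at least 1.2-fold lower. With proteins of other symbols added, 2 small subunit genes were at least 1.2-fold higher. At 1.1-fold in place of 1.2-fold, 20 genes were higher (11 large, 9 small) and 6 lower (3 large, 3 small). Depth limits Mrps18c most, at 162 and 181 reads.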
